A study of Caenorhabditis elegans with 2 samples.

Results

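The cuticle genes examined here were the protein-coding genes of Caenorhabditis elegans whose symbol starts with col-, rol-, sqt- or bli-. They numbered 169 of the 19973 protein-coding genes on the 6 nuclear chromosomes, with 156 col- genes, 6 bli-, 4 rol- and 3 sqt-. They were picked by symbol alone, and no measured value decided which genes entered. Earlier results of these data were known when the family was chosen. Chromatin immunoprecipitation with sequencing (ChIP-seq) recovers the DNA bound by a protein, here NHR-237 with an eGFP tag, a member of the nuclear hormone receptor family. The 2 libraries are biological replicates of whole L2 larvae of mixed sex from strain OP228, in which the integrated array wgIs228 is the insertion that targets nhr-237 and the unc-119(ed3) allele lies on chromosome III. All values come from this strain, and there is no untagged strain and no second condition among the samples. Whole larvae mix all tissues, so signal from the skin cells alone was not measured, and the labels give neither the promoter nor the copy number of the transgene. The antibody is labelled nhr-237, whereas the libraries are described as made against the eGFP fusion. The kind of control and its strain were not stated in the labels used here.

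The cuticle is a collagen-rich outer coat that the epidermis of the worm, called hypodermis, secretes anew for each larval stage and sheds at the molt. Cuticle collagens are short proteins built around repeats of glycine followed by any pair of residues (Gly-X-Y), which wind into a triple helix, and their genes are switched on in waves before each molt. Mutations in rol-, sqt- and bli- genes change the form of the animal, giving rollers, squat animals or blisters of the cuticle. Of the 169 genes, 164 encoded a protein with at least 5 Gly-X-Y triplets in a row, with a median longest run of 21 triplets and 20.8% glycine. The others were rol-3, for a receptor tyrosine kinase, bli-3, for a dual oxidase that cross-links the cuticle, bli-4, for a proprotein convertase that trims procollagens, bli-5, for a Kunitz-type protease inhibitor, and col-17, whose annotated coding sequence held no such run.

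Sequences are shown for 3 regions near these genes, the reproducible one at col-38, one at col-71 that replicate 2 ranked high and one inside a gene at col-156, and for 3 well-studied members with no region near their start in the list called on both libraries together. They were read from the RefSeq WBcel235 genome (ce11), 5′ to 3′ on the strand of the named gene. The first 3 are the 100 bases on each side of the point of highest signal, the summit, with the 21 bases centred on it in capitals. They lie at chrII:8569484-8569684 (minus strand), chrII:3502781-3502981 (minus strand) and chrV:11449918-11450118 (minus strand). The last has its summit in a coding exon of col-156.
col-38 summit: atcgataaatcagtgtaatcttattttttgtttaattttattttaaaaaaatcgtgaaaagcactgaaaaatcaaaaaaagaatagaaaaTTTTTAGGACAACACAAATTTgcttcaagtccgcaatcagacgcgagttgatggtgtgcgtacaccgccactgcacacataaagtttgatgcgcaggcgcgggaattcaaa
col-71 summit: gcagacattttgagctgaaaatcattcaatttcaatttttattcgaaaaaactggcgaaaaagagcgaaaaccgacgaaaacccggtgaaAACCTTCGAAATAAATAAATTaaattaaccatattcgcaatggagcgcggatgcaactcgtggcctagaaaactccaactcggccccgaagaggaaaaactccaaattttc
col-156 summit: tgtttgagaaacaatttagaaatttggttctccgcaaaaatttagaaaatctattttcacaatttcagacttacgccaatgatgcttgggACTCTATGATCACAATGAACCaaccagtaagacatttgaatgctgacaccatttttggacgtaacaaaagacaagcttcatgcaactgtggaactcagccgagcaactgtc

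The next 3 are the 250 bases upstream of sqt-3 (chrV:12352495-12352744, plus strand), of rol-6 (chrII:8732800-8733049, plus strand) and of bli-1 (chrII:10708710-10708959, plus strand). Capitals mark matches on either strand to TATAAA, the core of the TATA box, and to TGATAA, the GATA factor motif. In sqt-3 the capitals are a pair of overlapping TATAAA matches on opposite strands, at −108 and −106 bp from the start.
sqt-3 upstream: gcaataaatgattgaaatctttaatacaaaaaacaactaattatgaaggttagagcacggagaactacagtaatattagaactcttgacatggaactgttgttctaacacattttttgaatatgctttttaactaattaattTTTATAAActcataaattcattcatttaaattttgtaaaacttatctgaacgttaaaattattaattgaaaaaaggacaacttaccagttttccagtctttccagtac
rol-6 upstream: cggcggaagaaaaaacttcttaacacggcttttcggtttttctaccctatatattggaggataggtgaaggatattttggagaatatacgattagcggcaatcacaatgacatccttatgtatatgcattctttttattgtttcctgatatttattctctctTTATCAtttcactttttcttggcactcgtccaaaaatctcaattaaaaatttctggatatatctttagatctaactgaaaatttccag
bli-1 upstream: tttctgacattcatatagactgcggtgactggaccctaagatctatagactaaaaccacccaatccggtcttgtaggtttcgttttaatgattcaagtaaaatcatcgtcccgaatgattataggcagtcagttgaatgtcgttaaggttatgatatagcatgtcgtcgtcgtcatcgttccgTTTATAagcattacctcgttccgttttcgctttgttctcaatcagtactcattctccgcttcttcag

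Of these genes 1 was near a reproducible region, and the share of the family was near or below that of protein-coding genes at large in most lists. A gene was counted when the summit of a region lay within 1000 bp of the 5′ end of its model. Of the 169 genes, 21 (12.4%, exact 95% interval 7.86 to 18.4) were near a region of the pooled list of 6542 regions, which the authors called on both libraries together. That list is described as peaks with background, so a region in it is not by itself a reproducible one. The background over all protein-coding genes was 15.8%. Only col-38 (0.592%, exact 95% interval 0.0150 to 3.25) was near any of the 350 regions that passed the authors' test of reproducible rank (irreproducible discovery rate, IDR), against a background of 1.72%. These intervals cover counting error in genes only and not variation between libraries, and read depth is unknown. They treat the genes as independent, although some share a region. No test of the family against other genes was made, so nothing is called particular to it.

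The relaxed lists of single libraries, which hold 30000 regions each and are also described as peaks with background, reached many more of the genes. Replicate 1 had a region near 92 of them (54.4%, exact 95% interval 46.6 to 62.1), with a background of 50.3%. Replicate 2 had a region near 79 (46.7%, exact 95% interval 39.0 to 54.6), with a background of 49.3%. The family was thus slightly above the background in replicate 1 and slightly below it in replicate 2, and both intervals held the background. By gene, 51 (30.2%) had a region in both lists, 41 (24.3%) in replicate 1 only, 28 (16.6%) in replicate 2 only and 49 in neither. Of all other protein-coding genes, 28.8% had a region in both lists, 21.4% in replicate 1 only and 20.5% in replicate 2 only. Summits of the replicates lay within 150 bp of each other at 21 genes (12.4%), against a background of 13%. The 49 genes in neither list (29.0%) compare with 29.3% of all other protein-coding genes.

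At the numbers of highest regions given here, from 350 to 10000, the share of the family was below the background. Among the 1000 highest pooled regions 5 of the genes were counted (2.96%, background 4.06%), and among the 2000 highest 8 were (4.73%, background 6.48%). Each replicate had 2 of the genes near its 350 highest regions (1.18%). The backgrounds were 1.65% in replicate 1 and 1.54% in replicate 2. At the 2000 highest regions the replicates parted, with 9 genes in replicate 1 (5.33%, background 6.3%) and 2 in replicate 2 (1.18%, exact 95% interval 0.144 to 4.21, background 5.77%). That interval lay below the background, at a cut singled out after the values were seen. At the 10000 highest regions each list held 32 of the genes (18.9%), with backgrounds of 21.9% and 21.1%.

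**Figure D1:**
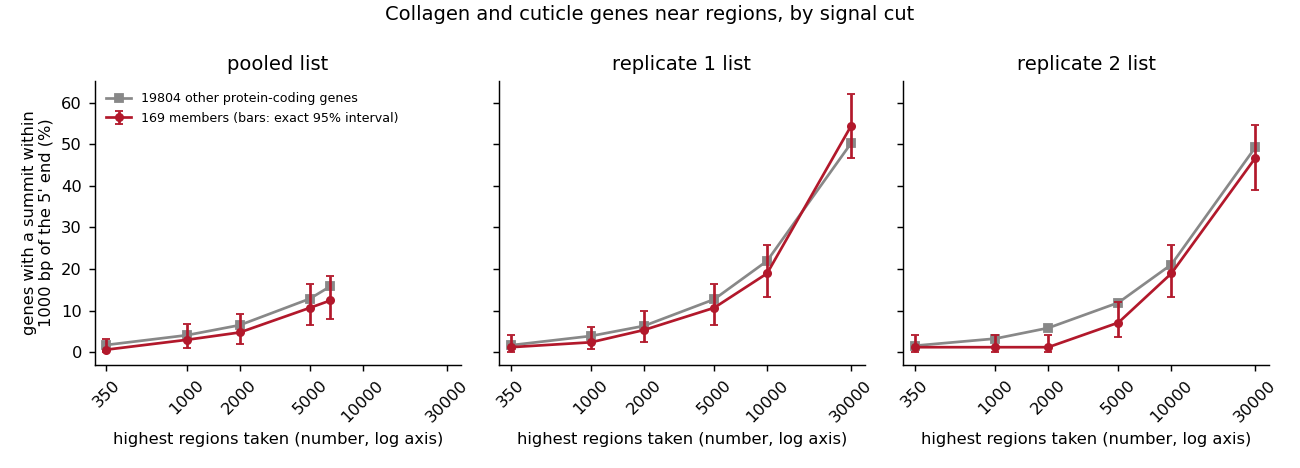
Percent of genes with a summit within 1000 bp of the 5′ end (y axis) against the number of highest regions taken from the pooled, replicate 1 and replicate 2 lists (x axis, log scale), for the 169 cuticle genes (circles with exact 95% intervals) and the 19804 other protein-coding genes (squares). The intervals hold the value of the other genes at every cut plotted except the 2000 highest regions of replicate 2, and in replicate 2 the cuticle genes stay at 1.18% up to 2000 regions.

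The strongest region of the family was shared with a ribosomal protein gene. The region at chrII:8569396-8569771 had its summit at −496 bp from the start of col-38 (negative is upstream) (II 8568035 to 8569088, minus strand), a cuticle collagen gene. The same summit was at −343 bp from rpl-5, which encodes a protein of the large ribosomal subunit and is read in the opposite direction. The pooled signal, the authors' measure of enrichment, on a scale that differs between lists, was 53.3, rank 210 of the list. It was 29.2 (rank 346) in replicate 1 and 23 (rank 156) in replicate 2. This was the only member among the 350 highest regions of both replicates, and its summit was intergenic and closer to rpl-5 than to col-38. Counting each region only for the gene with the closest start leaves no cuticle gene near an IDR region.

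Further down the pooled list, 4 other regions were also in reach of a gene outside the family. At col-71 the summit lay at −311 bp, but at −87 bp from Y49F6B.2 on the other strand. Its pooled signal was 33.1 (rank 630), with 13.2 (rank 7340) in replicate 1 and 19.2 (rank 298) in replicate 2. Replicate 2 therefore ranked it far higher than replicate 1 did. At bli-6, a cuticle collagen gene, the summit was at −381 bp, and at −161 bp from hrpf-2, which encodes an RNA-binding protein. Its pooled signal was 21 and its replicate 1 signal was 17.9, with no replicate 2 summit within 150 bp. The other pairs were col-129 with dlc-2, a dynein light chain gene (pooled signal 24.3, replicates 15.5 and 8.44), and col-73 with F11G11.15 (22.2, replicates 9.64 and 7.67). In all 5 shared regions the gene outside the family had the closer start.

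The remaining 15 regions had no start outside the family within 1000 bp, and they served 16 genes because col-46 and col-47 shared a region. The highest of them was at col-63, with a pooled signal of 37.4 (rank 450) and a summit at −718 bp. Its replicate 1 signal was 31.8 (rank 284), the highest of any of the 169 genes in that list. No replicate 2 summit lay within 150 bp of it. The nearest counterpart by gene was a separate replicate 2 region at −518 bp, with a signal of 12.2 (rank 2236). The summit of the pooled region lay in the 3′ UTR of the neighbouring homeobox gene ceh-8.

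At col-152 the pooled signal was 31.1 (rank 763) with the summit at −173 bp, the closest upstream summit in the family. Replicate 1 gave 20.6 (rank 1063) and replicate 2 gave 10.1 (rank 4969), so both lists held it. The summit fell in the 3′ UTR of best-14, a bestrophin family gene whose annotated end lies just upstream of col-152. At col-93 the summit was at −999 bp in an intron of dhc-4, a dynein heavy chain gene. It had a pooled signal of 28.5 with 19.2 in replicate 1 and 7.5 in replicate 2. At col-142 the summit was at −221 bp with a pooled signal of 21. Here replicate 2 (12.4, rank 2088) ranked the region higher than replicate 1 did (10.7, rank 14833).

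A further 5 regions lay upstream with no start outside the family in reach. At col-42 the pooled signal was 25.4 at −516 bp, with 17.7 (rank 2050) in replicate 1. At col-97 it was 23.6 at −218 bp, with 15.4 in replicate 1. At col-149 it was 20.6 at −302 bp, with 18.2 (rank 1774) in replicate 1. At col-177, the lowest, it was 19.2 at −547 bp, with 15.5 in replicate 1. None of these 4 pooled summits had a replicate 2 summit within 150 bp. The highest replicate 2 signal in reach of col-42 was 10.3 (rank 4601), 637 bp downstream of the start. Another replicate 2 summit there, at −689 bp (5.09, rank 29302), was within 150 bp of the replicate 1 summit at −561 bp. At col-37 both replicates had one, with a pooled signal of 19.7 at −936 bp in a coding exon of ZK863.1, 10.4 in replicate 1 and 7.89 in replicate 2.

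Several regions lay inside a cuticle gene. At col-156 the summit was 339 bp downstream of the start, in a coding exon, with a pooled signal of 30.3 (rank 843). Replicate 1 gave 26.2 (rank 450) and replicate 2 had no summit within 150 bp. At col-176 the summit was 58 bp downstream of the start, in a coding exon, with 25.8 pooled, 20.9 (rank 997) in replicate 1 and 5.55 (rank 25281) in replicate 2. Replicate 1 thus ranked both regions higher. A separate replicate 2 region, 884 bp downstream of the start of col-176, had a signal of 9.67 (rank 5754). The summits at col-64, col-72, col-77 and col-46 were also inside the gene named, in introns of the first pair, a coding exon of col-77 and the 5′ UTR of col-46. Their pooled signals ran from 19.8 to 23.6. Of this group the replicate 2 list held the region at col-46 alone (7.09, with 11.9 in replicate 1).

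**Figure D2:**
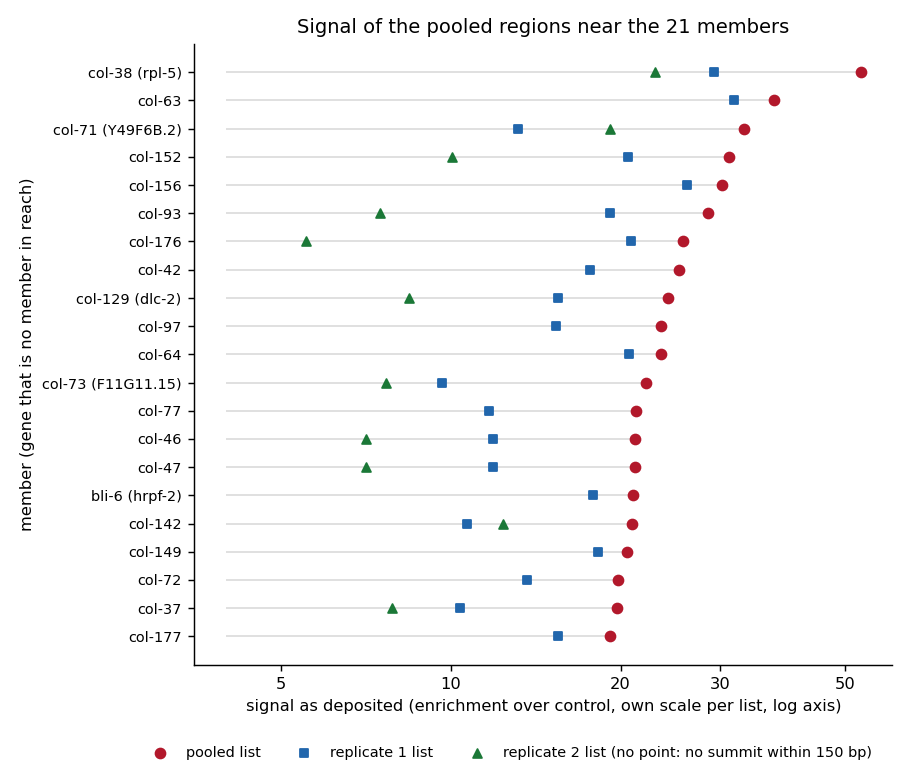
Signal as deposited (x axis, log scale, each list on its own scale) of the pooled region near each of the 21 cuticle genes (y axis, in order of pooled signal, with any gene outside the family that is in reach in brackets). Circles are the pooled list, squares replicate 1 and triangles replicate 2; every gene has a replicate 1 point, and 10 of the 20 regions have no replicate 2 point.

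The pooled regions near cuticle genes rested more on replicate 1 than on replicate 2. All 20 had a replicate 1 summit within 150 bp and 10 (50%) had a replicate 2 summit. Of the 2743 pooled regions near other protein-coding genes only, 87.5% had a replicate 1 summit, 65.3% a replicate 2 summit and 54.6% both. The 20 regions had a median signal of 23.6 (quartiles 21 and 29, range 19.2 to 53.3) against 22.4 (quartiles 20.2 and 27.1) near other genes. The highest value near other genes was 316. In replicate 1 the 110 regions near cuticle genes had a median of 10.3 against 10.8 near other genes. In replicate 2 the 100 regions had a median of 7.18 against 7.15.

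The 21 genes with replicate summits within 150 bp of each other included 12 that were also near a pooled region. The other 9 were col-10, col-76, col-137, col-141, col-159, col-160, col-172, rol-1 and sqt-1. The pair col-159 and col-160, with a shared region upstream of both, had the highest replicate 1 signal of the 9, with 13.7 (rank 6354) in replicate 1 and 7.42 (rank 13255) in replicate 2. The highest replicate 2 signal of the 9 was 8.63 (rank 8465), at rol-1. At col-10 the signals were 8.68 (rank 24818) and 6.27 (rank 19771). The median signals of the whole lists were 10.6 in replicate 1 and 7.08 in replicate 2.

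Of the 13 rol-, sqt- and bli- genes, named for the shape or movement of their mutants, 9 had a replicate 1 region within 1000 bp, 4 a replicate 2 region, 1 a pooled region and none an IDR region. The backgrounds over all protein-coding genes were 50.3%, 49.3%, 15.8% and 1.72%. Of the collagens sqt-1, sqt-2, sqt-3, rol-6, rol-8, bli-1, bli-2 and bli-6, and of rol-1, which also encodes Gly-X-Y repeats, only bli-6 was near a pooled region. No summit of either replicate lay within 1000 bp of sqt-3, bli-1 or bli-2. For bli-2 the nearest replicate summits were at −1221 bp (replicate 1) and −1184 bp (replicate 2), just outside the limit. For sqt-3 the nearest replicate 1 summit was 3157 bp downstream of the start.

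Regions of the replicate lists were found at others. At rol-6 a replicate 1 summit lay 871 bp downstream of the start with a signal of 15.8 (rank 3504), and replicate 2 had none in reach. At rol-8 replicate 1 gave 11 and at sqt-2 it gave 10.8, again without replicate 2. At sqt-1 replicate 1 gave 10.2 at −25 bp, with no replicate 2 summit nearby. A further pair of summits in the gene body, 898 and 944 bp downstream of the start, had signals of 8.03 and 6.41 in replicates 1 and 2. At rol-1 they gave 9.73 and 8.63, at 183 and 116 bp downstream. Apart from rol-6, the best rank among these was 8465, at rol-1 in replicate 2.

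Of the enzymes, the protease inhibitor and the receptor in the set, none was near a pooled region. At bli-3 the highest replicate 1 signal in reach was 14.6 (rank 4857) at −293 bp. Replicate 2 had 3 regions in reach, the highest with 7.44 at −923 bp and the nearest at 171 bp. At bli-4 and bli-5 replicate 1 gave 9.85 and 11.9, and replicate 2 had no summit in reach. The receptor gene rol-3 had none in either list.

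Pooled summits near cuticle genes lay from −999 bp to 739 bp from the start. Of the 21 pairs of region and gene, 14 (66.7%) had the summit upstream, close to 66.1% of the 3397 pairs of other genes. The median position was −302 bp (quartiles −547 and 177) for cuticle genes and −168 bp (quartiles −464 and 230) for other genes. Summits in the 300 bp just upstream of the start made up 3 of 21 pairs (14.3%) and 30.2% of those of other genes. The relaxed lists did not share this contrast evenly. In replicate 1 such summits made up 26 of 115 pairs (22.6%), above the 19.8% of other genes. In replicate 2 they made up 15 of 104 (14.4%), below 19.3%. Median positions were −91 bp against −81 bp in replicate 1 and −109 bp against −83 bp in replicate 2. By annotation, 9 of the 20 regions (45%) were intergenic, 4 in coding exons, 4 in introns, 2 in 3′ UTRs and 1 in a 5′ UTR, and 53.0% were intergenic near other genes. No tRNA, snoRNA, snRNA, miRNA or rRNA gene lay within 250 bp of any of the 20 summits. At the edge of the window, col-93 (−999 bp) and col-37 (−936 bp) were the last inside, and col-76 (−1046 bp) and col-144 (1094 bp) the first outside.

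**Figure D3:**
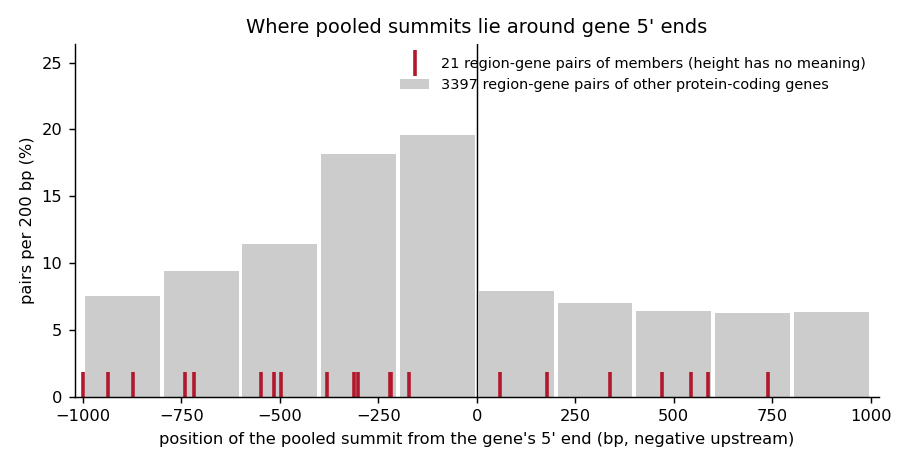
Position of pooled summits from the gene's 5′ end in bp (x axis, negative upstream) as a percent of pairs per 200 bp for other protein-coding genes (grey bars) and as single marks for the 21 pairs of cuticle genes. The bars are highest just upstream of the start (19.5%), where 1 of the 21 marks lies.

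The family was unevenly spread over the chromosomes. Chromosome IV carried the most of its genes, 42, and 2 of these (4.76%) were near a pooled region, against 16.5% of the other genes of that chromosome. On X it was 2 of 27 (7.41%, others 14.6%). On V it was 6 of 33 (18.2%, others 12.9%), on II 5 of 31 (16.1%, others 13.8%), on III 2 of 13 (15.4%, others 20.2%) and on I 4 of 23 (17.4%, others 19.7%). The family was therefore below the other genes on IV, X, III and I and above them on II and V, with counts of 6 or fewer on each.

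Cuticle genes differed from other genes in length, in spacing and in the base content around the start. Their median length was 1228 bp, against 2038 bp for other protein-coding genes. The next 5′ end of a protein-coding gene lay within 1000 bp for 24 of the 169 (14.2%) and for 23.6% of other genes. The median GC content within 500 bp of the start was 40.0% against 35.3%. Whether these features play a part in the counts was not tested. The cuticle genes near a pooled region resembled the rest of the family, with a median length of 1169 bp against 1230 bp and a GC content of 40.7% against 39.8%.

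The letters upstream of the genes were also compared, as a description and not as evidence of binding. Windows ran from 250 bp upstream to 50 bp downstream of the start, and motifs were sought on both strands; matches to different motifs can overlap at their ends. TATAAA was present in 111 of the 169 windows (65.7%) and in 37.9% of all protein-coding windows. CCGCCC, a KLF/SP type motif, was present in 14.8% against 7.83%, and AGGTCA, the half-site that many nuclear receptors bind, in 13% against 8.27%. TGATAA was at 30.8% against 30.2% and the repeat GAGAGAG at 9.47% against 6.78%. Among the 21 genes near a pooled region TATAAA was in 10 windows (47.6%), AGGTCA in 3 and CCGCCC in 1.

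The same letters were sought around the summits themselves. Within 100 bp of the 20 summits AGGTCA and GAGAGAG were absent, and over all pooled regions they were in 4.75% and 6.11% of windows. TGATAA was in 2 windows (10%), CCGCCC in 2 (10%) and TATAAA in 4 (20%). Over all pooled regions they were in 15.9%, 5.21% and 22.7%. The windows at col-38, col-71 and col-156 printed above held none of the 5. The absence of these letters says nothing of whether a factor binds there.

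Other genes of cuticle formation were taken as 7 lists of 100 genes in all, none of them on the col-, rol-, sqt- or bli- list. Of the 100, 13 (13%, exact 95% interval 7.11 to 21.2) were near a pooled region, with the background of 15.8% given above. Among 12 further cuticle collagens, 11 of them dpy- genes and the last lon-3, none was near a pooled region (upper exact 95% limit 26.5%). The same held for 4 basement membrane and neuronal collagens and for 11 molting genes. Cuticlins and zona pellucida proteins, which form the ridges and inner layers of the cuticle, had 2 of 39, led by cutl-28 (pooled signal 21.4). That share was 5.13% (exact 95% interval 0.627 to 17.3).

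The genes that modify and process collagen had the largest share of these lists. Of 16, 7 (43.8%, exact 95% interval 19.8 to 70.1) were near a pooled region (background 15.8%) and 2 (12.5%) near an IDR region (background 1.72%). Summits of both replicates within 150 bp of each other were found at 2 of the 16 (12.5%, background 13%). The highest was pdi-3, for a protein disulfide isomerase of the endoplasmic reticulum, at 48.9 (rank 250) with the summit at −606 bp, and ubql-1 was also in reach at −569 bp. Replicate 1 gave 33.6 (rank 243) and replicate 2 gave 12.5 (rank 2025). The other was pdi-2, which encodes the disulfide isomerase subunit of prolyl 4-hydroxylase, the enzyme that stabilises the collagen helix. Its signal was 45.4 (rank 308), with the summit 13 bp downstream of the start and no other start in reach. Replicate 1 gave 30.9 (rank 306) at this site, and the highest replicate 2 summit in reach was at 878 bp with 14.6 (rank 975). These enzymes also fold other secreted proteins, and pdi-2 was chosen after its values were seen.

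Among regulators, 3 of 10 (30%, exact interval 6.67 to 65.2, background 15.8%) were near a pooled region. They were led by myrf-1, a membrane-bound transcription factor needed for molting, at 29.4 and −314 bp, with 19.4 in replicate 1 and 10.1 in replicate 2. The others were lin-29 and nhr-25, at 20.1 and 19.7. Of the 8 genes of the BMP pathway, which sets body size partly through cuticle collagens, only sma-3 was near a pooled region (30.5, at −662 bp). That share was 12.5% (exact interval 0.316 to 52.7). The intervals of the regulators and of the BMP pathway both held the background of 15.8%.

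Families chosen by symbol were set beside the cuticle genes, with no test between them. Of 269 nhr- genes, 13.4% were near a pooled region and 0.372% near an IDR region, compared with 12.4% and 0.592% of the cuticle genes. Of 281 srh- and sri- chemoreceptor genes, 6.05% were near a pooled region and 0.712% near an IDR region. Of 78 rpl- and rps- genes for ribosomal proteins, 78.2% were near a pooled region and 32.1% near an IDR region. In the relaxed lists of the replicates the spread was smaller, from 44.1% to 54.4% for the first 3 families and from 91.0% to 92.3% for ribosomal protein genes.

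**Figure D4:**
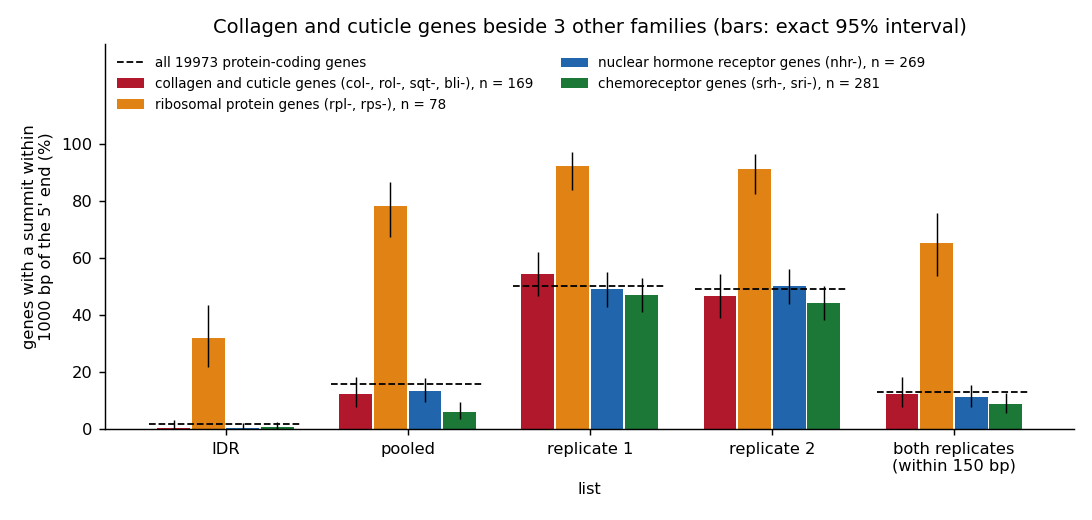
Percent of genes with a summit within 1000 bp of the 5′ end (y axis) in each list (x axis) for the 169 cuticle genes, 78 ribosomal protein genes, 269 nuclear hormone receptor genes and 281 chemoreceptor genes, with exact 95% intervals; dashed lines are all 19973 protein-coding genes. The interval of the cuticle genes holds the dashed line in every list, and ribosomal protein genes lie far above it.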

How the data were processed

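The deposited files were narrowPeak region lists. Per the deposited descriptions, regions were called by the authors against a control on single libraries and on both together (pooled), and pooled regions passing an IDR threshold were kept. The sources used here do not give the peak caller, aligner or threshold. The deposited signal is the enrichment measure of that layout, whose formula was not stated, and the summit is the authors' offset from the region start. The 350 IDR regions were the 350 highest of the pooled list, which was checked. Read depth is unknown, and values per list have no SD.

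Only the ce11 lists were used. Gene models came from Ensembl release 115 and sequence from RefSeq WBcel235, the same build. Distances were taken to the 5′ end of the gene model. Exact (Clopper-Pearson) 95% intervals came from SciPy 1.17.1; pandas 2.3.3, NumPy 2.4.6 and matplotlib 3.10.9 were also used, under Python 3.11.15. Gly-X-Y runs were counted in the longest annotated coding sequence. The search was tested on simulated data. By rule, named genes were all members near a pooled region and all rol-, sqt- and bli- genes. The rule also took the highest gene of each pathway list, genes sharing a summit and members at the edge of the window. Outside it, members with matched replicate summits, all regulators near a pooled region and pdi-2 were named. So were genes in which a summit lay, lon-3 and col-17. Members, lists and this rule were chosen with earlier results of these data known. Alternatives were other distance limits, the closest start only, all transcript starts, Gly-X-Y members only, the stronger regions only, other replicate matches and each replicate alone.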

Additional observations from a re-analysis of the deposited data

How the results depend on the processing

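Of 56 values under alternatives, 38 stayed within the exact interval or quartiles of the value reported and 18 did not. With a limit of 500 bp the share of cuticle genes was 6.51% in the pooled list, 33.7% in replicate 1, 25.4% in replicate 2 and 5.33% for both replicates, and other genes were at 10.2%, 31.6%, 31.2% and 8.11%. With 2000 bp these shares were 27.2%, 77.5%, 71% and 23.7%, and other genes were at 25%, 72%, 71.1% and 21.4%, so the pooled share turned from below to above that of other genes. In the 50% of each list with the highest signal the shares were 7.10% (pooled), 0% (IDR), 29.6% (replicate 1), 30.2% (replicate 2) and 5.92% (both replicates), and other genes were at 9.27%, 0.894%, 30.3%, 29.1% and 6.26%, so the replicate 2 share turned to above that of other genes. Counting only the closest start gave 0% for IDR, as did leaving out regions in reach of other genes, an alternative chosen after seeing the data. With replicate summits within 50 bp the share for both was 7.69%, above the 6.55% of other genes, where it was below at 150 bp. For each replicate alone, its 6542 and 350 highest regions stood in for the pooled and IDR lists. The share in place of pooled ran from 11.8% to 16.0%. In place of IDR it was 1.18%, which repeats the counts at the 350 highest regions and is no check of the IDR result. The median signal, on the scale of the remaining list, was 10.2 without replicate 1 (other genes 11.4) and 15.4 without replicate 2 (other genes 16.3). It was thus below that of other genes in both, where the pooled median was above. The median position ran from −267 to −226 bp. Without replicate 2 the share of 16.0% was just above that of other genes (15.7%). No paired analysis was possible because both libraries belong to 1 group. With 169 genes, shares differing from the background by a few percentage points could not be resolved.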
